A study of Mus musculus with 5 samples.

Results

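H3K27ac was examined at 8 genes of cholesterol synthesis and its control, of 21951 protein-coding genes, in Treg (regulatory T) cells of the gut, sorted from large intestines of mice aged 2 weeks. The genes were the transcription factors Srebf2 and Srebf1, their retention factor Insig1, and the enzymes Hmgcs1, Fdps, Fdft1, Sqle and Lss. H3K27ac is the histone H3 tail acetylated at lysine 27, a mark of active promoters and enhancers. It was mapped by CUT&Tag, in which an antibody tethers a transposase to the mark, so that nearby DNA is cut and tagged for sequencing. The members were listed by name. Each was measured by the peaks that overlapped its span extended by 5 kb on each side, called its window below, and 77 of the 124158 peaks lay in the 8 windows.

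Control (Ctrl) mice were Foxp3Cre-YFP Setd2 f/+ and knockout (KO) mice were Foxp3Cre-YFP Setd2 f/f, both on the C57BL/6 background. Both groups thus carried the Cre recombinase under control of Foxp3, the gene of the transcription factor that defines Treg cells, and the controls also carried 1 floxed allele of the histone methyltransferase gene Setd2. Each group had 2 libraries, each of 60000 sorted CD3+CD4+YFP+ cells pooled from 3 to 5 littermate mice of both sexes. The question was how H3K27ac in promoters and elsewhere in a gene differed when Treg cells lacked Setd2. The IgG control was not analysed here, so no background was subtracted from the values below.

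The SREBP proteins, encoded by Srebf1 and Srebf2, are made as precursors in the membrane of the endoplasmic reticulum. When sterols are scarce, SCAP carries them to the Golgi, where proteases release the part that enters the nucleus and switches on genes of sterol and fatty acid synthesis. When sterols are plentiful, INSIG proteins hold SCAP and the precursor back. The pathway supplies T cells with membrane sterols when they divide, and its isoprenoid branch supplies the lipid anchors of small GTPases. SREBP proteins bind the sterol regulatory element (SRE) of their target promoters, and also E-boxes.

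The promoter windows of the RefSeq table (GRCm38.p6, the assembly of mm10) held entries for 5 of the 8 genes, namely Srebf2, Srebf1, Insig1, Hmgcs1 and Lss. They were searched on both strands for TCACCCCA, the core of the SRE, for the longer form TCACNCCAC, which overlaps it, and for the E-box CACGTG. TCACCCCA was found in Hmgcs1 and Srebf2 and in 1.56% of 32851 promoter windows of 250 bases before and 50 bases after a start. TCACNCCAC was found in Hmgcs1 and in 1.24% of promoters. CACGTG was found in Insig1 and in 7.15% of promoters. The stretches before the start that held these letters are given here, because each lay inside the H3K27ac peak that covers the start of its gene. Capitals mark the matched letters, and all 3 are on the plus strand.
Hmgcs1, chr13:119690101-119690350: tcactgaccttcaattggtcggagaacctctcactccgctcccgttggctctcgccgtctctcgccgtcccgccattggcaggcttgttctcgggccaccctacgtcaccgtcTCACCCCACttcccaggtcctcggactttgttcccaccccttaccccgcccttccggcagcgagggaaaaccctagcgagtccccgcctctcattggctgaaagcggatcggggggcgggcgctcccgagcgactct
Srebf2, chr15:82147019-82147180: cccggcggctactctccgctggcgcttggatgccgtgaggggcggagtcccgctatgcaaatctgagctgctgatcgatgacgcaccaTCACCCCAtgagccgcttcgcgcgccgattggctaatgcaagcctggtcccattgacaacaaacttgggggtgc
Insig1, chr5:28071162-28071362: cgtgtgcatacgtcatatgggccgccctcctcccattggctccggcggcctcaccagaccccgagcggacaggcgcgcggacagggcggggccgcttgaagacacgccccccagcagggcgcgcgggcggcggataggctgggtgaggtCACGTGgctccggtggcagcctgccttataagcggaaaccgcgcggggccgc
In Hmgcs1 the longer motif ended 128 bases before the RefSeq start, in Srebf2 the SRE core ended 154 bases before it, and in Insig1 the E-box ended 95 bases before it. More common motifs were found in all 5 genes, namely CCAAT, which 37.4% of promoters held, and the GC box GGGCGG, which 35.7% held. A match describes the letters only and says nothing of binding.

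The 4 libraries held 2395002 to 4712473 counts each. Values are given as CPM, counts scaled to a common library size by the counts in tested peaks and TMM factors, so that 1 count stood for 0.24 to 0.452 CPM. The Setd2 window held 67.4 and 97.6 CPM in Ctrl and 49.2 and 75.7 in KO, groups that overlapped. Its promoter differed by 0.25, with both KO libraries higher, as in 17.8% of all promoter sums tested. Its other peaks differed by −0.82 (unadjusted p = 0.0427, adjusted p = 0.663, edgeR). An unadjusted p under 0.05 was reached by 7.39% of all sums over other peaks. H3K27ac counts do not measure whether the floxed part was deleted. The 7 Treg and T cell markers, Foxp3 among them, were all tested and summed to 2793 to 3115 CPM in Ctrl and 3321 to 3910 in KO. Ikzf2 gave the largest part, with 1171 and 1227 CPM in Ctrl and 1288 and 1538 in KO. Foxp3 and Cd4 overlapped between groups, with a lower KO mean at Cd4. The other markers had both KO libraries higher, as in 12.9% of all gene windows tested. The epithelial markers summed to 27.6 to 28.6 CPM in Ctrl and 27.1 to 27.9 in KO, with no counts at Cdx1, Cdx2 and Krt20. B cell markers summed to 215 to 272 CPM in Ctrl and 212 to 338 in KO, most of it at Cd79a, with no counts at Ms4a1. The myeloid sums were 57 to 72.9 and 44 to 58.7 CPM with no counts at Lyz2, the CD8 T cell sums 12.8 to 18.5 and 15.3 to 22.7 CPM, and the stromal sums 9.95 to 13.7 and 12.2 to 15.6 CPM. Only the Treg and T cell sum was higher in both KO than in both Ctrl libraries, and its part in the results below was not tested. In bulk samples, more of the mark per cell and more cells that carry it cannot be told apart.

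Per kb of window, the transcription factor genes carried the most H3K27ac and the epoxidase gene the least. The Ctrl levels were 6.2 ± 1.03 CPM per kb (SD, n = 2) for Srebf1, 4.13 ± 1.37 for Srebf2, 3.88 ± 0.496 for Insig1 and 3.15 ± 0.345 for Hmgcs1. They were 2.55 ± 0.593 for Fdft1, 2.16 ± 0.516 for Fdps, 1.72 ± 0.502 for Lss and 0.552 ± 0.218 for Sqle. The KO levels had the same order except for Fdps, at 2.8 ± 0.14, and Fdft1, at 2.17 ± 0.257. Over the 4 libraries, each gene overlapped the next in the Ctrl order, apart from Lss, at 1.28 to 2.07 CPM per kb, and Sqle, at 0.328 to 0.707. Among the 14259 gene windows tested, the mean level of Srebf1 lay at percentile 92.3 and that of Sqle at percentile 26.4.

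Promoter peaks, those at most 3 kb from a start (TSS) of the gene, fell into a dense and a sparse set. Per kb of promoter peak, Hmgcs1, Insig1, Fdft1, Srebf1 and Srebf2 held 14.3 to 29.6 CPM over the 4 libraries, and Sqle, Lss and Fdps held 4.69 to 13.7 CPM. The densest promoter was that of Hmgcs1, at 21.9 ± 3.37 CPM per kb in Ctrl and 25.6 ± 5.61 in KO (SD, n = 2), percentile 95.7 of all promoters tested. The Fdps promoter had 6.97 ± 3.23 in Ctrl and 10.1 ± 2.05 in KO, percentile 14.5, and the Lss promoter 8.97 ± 1.57 and 9.4 ± 1.71, percentile 18.9, so the sparsest was Fdps in Ctrl and Lss in KO. The split into these sets was made after the values were seen and carries no test.

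**Figure D1:**
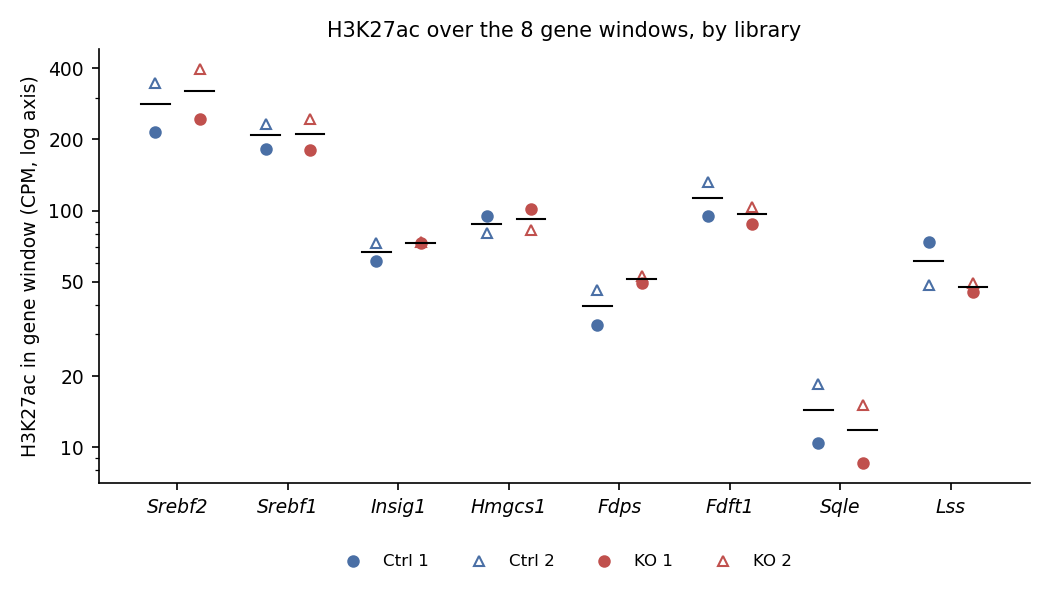
H3K27ac over the windows of the 8 genes in CPM, on a log axis, for each of the 4 libraries (points) with the group means (black lines). Ctrl and KO libraries overlapped for 7 of the 8 genes, and the distance between the 2 libraries of a group was often as wide as that between groups, as at Srebf2, with 215 and 348 CPM in Ctrl and 244 and 397 in KO.

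No gene of the set was called between KO and Ctrl over its whole window. All 8 windows passed the minimum of 10 counts in 2 libraries, and 0 of them had an adjusted p under 0.05 by edgeR's quasi-likelihood test, nor did any of the 14259 windows tested, 0% of them. An unadjusted p under 0.05 was reached by 0 of the 8 and by 2.73% of all windows (389). DESeq2 called 0 windows as well. The estimates ran from −0.36 for Lss to 0.36 for Fdps on the log2 scale, with 5 genes higher and 3 lower in KO and a median of 0.05, against −0.01 over all windows. With total counts as library size the split was 4 to 4 as Srebf1 turned, and with a loess offset it was 3 to 5 as Srebf1 and Hmgcs1 turned. Fdps alone had both KO libraries above both Ctrl libraries, which held for 12.9% of all windows, and no member had both below, which held for 16.5%. Without 1 or another of the 4 libraries, 6 of the 8 estimates changed sign, all but those of Lss and Fdps.

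**Figure D2:**
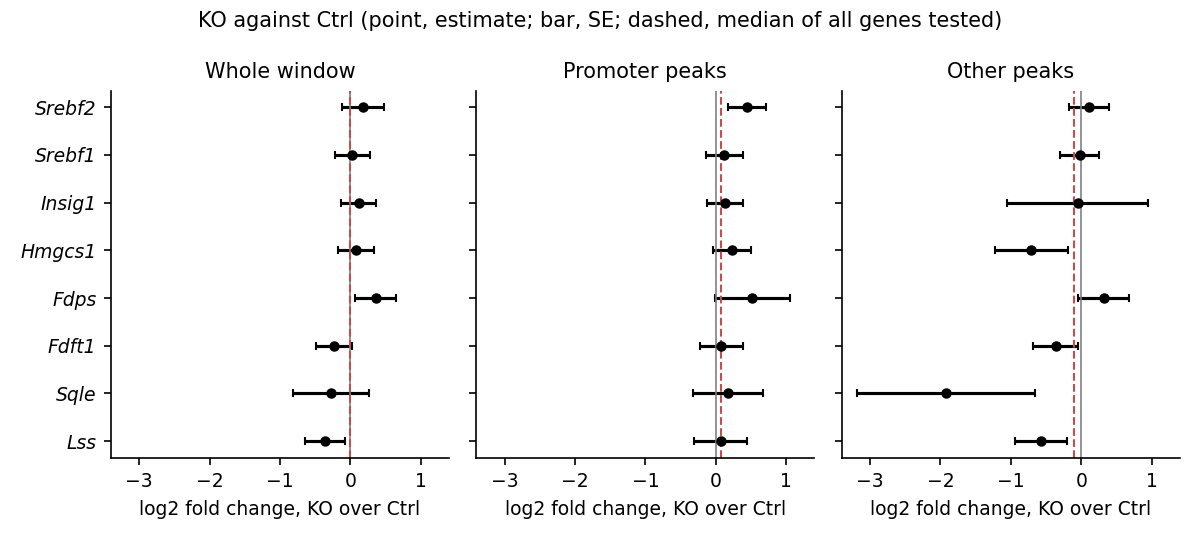
log2 fold change of KO over Ctrl with its SE for the 8 genes, over the whole window, the promoter peaks and the other peaks, with the median of all genes tested as a dashed line. Promoter estimates lie above 0 for all 8 genes, with bars that reach the median of all promoters for 7, and the other peaks run from −1.92 for Sqle to 0.32 for Fdps.

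Srebf2 encodes SREBP-2, the main activator of cholesterol synthesis genes. Its span (ENSMUSG00000022463.8) lies on the plus strand of chromosome 15, from 82147181 to 82205379, and its window held 21 peaks. The window had 215 and 348 CPM in Ctrl and 244 and 397 in KO, a log2 difference of 0.18 with an SE of 0.30 (adjusted p = 0.999, edgeR). The second library of each group was higher than the first, and the genotypes overlapped. The promoter peak, which covers the SRE core shown above, spanned chr15:82145323-82148887. It held 51.1 and 62.2 CPM in Ctrl and 64.5 and 90.8 in KO, so KO and Ctrl did not overlap, with KO above as in 17.8% of all promoter sums. The difference was 0.45 with an SE of 0.27 (adjusted p = 0.999, unadjusted p = 0.121), and 1.29% of promoter sums reached an unadjusted p under 0.05.

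Promoter peaks held 17.9% to 26.5% of the Srebf2 counts, and the rest lay mostly inside the gene. A peak of 7225 bp in an intron, chr15:82162387-82169611, began 15.2 kb from the TSS, and ranked 485 in width among the 124158 peaks. It held 76.9 and 134 CPM in Ctrl and 90.9 and 149 in KO, more than the narrower promoter peak in each library. Per kb of peak its group means were 14.6 CPM in Ctrl and 16.6 in KO, below the 15.9 and 21.8 of the promoter peak. The log2 difference of the intronic peak was 0.19 with an SE of 0.27. The lowest p in the window belonged to an intronic peak 39.2 kb from the TSS, nearer to the start of Shisa8, with 13.6 and 28.9 CPM in Ctrl and 23.8 and 39.8 in KO (0.57, SE 0.36, unadjusted p = 0.113, edgeR). Of the window's 21 peaks, 10 lay nearer to the TSS of Shisa8, and these held 18.7% to 25.8% of its counts. Mir33, the gene of a microRNA known to repress cholesterol export, lies within Srebf2 at chr15:82198122-82198190, 50.9 kb from the TSS. No peak overlapped it, and the nearest ended or began 766 and 994 bp away. The mature sequence of mmu-miR-33-5p, with the seed (bases 2 to 8) in capitals, is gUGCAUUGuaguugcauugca.

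Srebf1 encodes the SREBP-1 proteins, which act mostly on fatty acid genes. It lies on the minus strand of chromosome 11, from 60199089 to 60222581 (ENSMUSG00000020538.15). The full length of its 18 peaks came to 59.7% of the window length, against 6.3% to 37.3% for the other members. Peaks that ran past a window edge were taken whole, as was chr11:60192197-60194124, most of which lies outside. Of the 18 peaks, 2 lay nearer to the TSS of Rai1 and held 5.93% to 12.3% of the counts. The Srebf1 window had 183 and 232 CPM in Ctrl and 180 and 243 in KO, with a log2 difference of 0.03 and an SE of 0.25. The groups were nearly the same in mean and overlapped in full. Signal lay over several starts. The peak over the start in the basic GENCODE annotation, chr11:60218919-60221188, held 43.4 and 38.7 CPM in Ctrl and 32.8 and 41.2 in KO (−0.14, SE 0.32). The peak over the upstream end of the gene, chr11:60222123-60223365, held 24.4 and 27.7 CPM in Ctrl and 26.8 and 39.5 in KO (0.35, SE 0.35). Neither pair of groups was separated.

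Another Srebf1 peak, chr11:60210203-60211342, covered an internal start of the RefSeq annotation, and its near edge lay 9.26 kb from the TSS. It had the lowest p of the Srebf1 peaks and held 10.9 and 12.8 CPM in Ctrl and 19.4 and 18.7 in KO. Both KO values were thus above both Ctrl values, as at 9 of the 61 tested member peaks, while 7 had both below. The difference was 0.68 with an SE of 0.44 (unadjusted p = 0.125, adjusted p = 0.998, edgeR). It counted among the other peaks, because the basic annotation lists no start there. The 250 bases before that internal start, on the minus strand, are shown because this peak covers them. They held none of the searched strings TCACCCCA, TCACNCCAC and CACGTG and are given in lower case. Other forms of the SRE and of the E-box were not searched.
Srebf1, chr11:60210472-60210721: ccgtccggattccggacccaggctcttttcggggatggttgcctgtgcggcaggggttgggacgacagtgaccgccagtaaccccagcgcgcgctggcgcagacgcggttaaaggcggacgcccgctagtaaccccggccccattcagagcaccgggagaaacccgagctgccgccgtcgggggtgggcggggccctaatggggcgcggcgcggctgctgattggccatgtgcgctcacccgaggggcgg

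**Figure D3:**
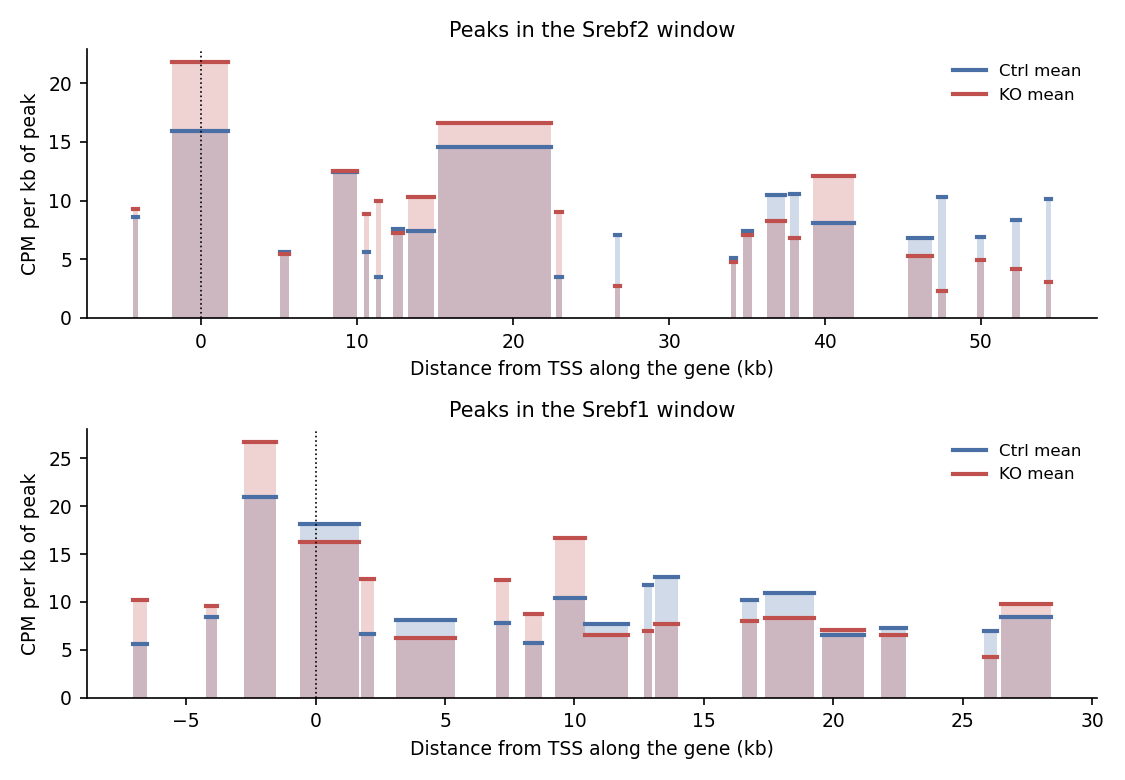
Peaks in the Srebf2 and Srebf1 windows by distance from the TSS (kb, along the gene), with the mean of the 2 Ctrl and of the 2 KO libraries in CPM per kb of peak. The Srebf2 peak 15.2 kb into the gene is the widest of the member peaks, and the Srebf1 signal is spread over most of the window, with the KO mean above the Ctrl mean at the peak that begins 9.26 kb from the TSS and covers an internal start.

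Insig1 encodes a sterol sensor that holds SCAP and the SREBP precursors in the endoplasmic reticulum and is itself an SREBP target. It lies on chromosome 5, from 28071363 to 28078662 on the plus strand (ENSMUSG00000045294.11). Its window had 61.1 and 73.2 CPM in Ctrl and 73 and 73.6 in KO (0.12, SE 0.25). The KO values lay close together, at the level of the second Ctrl library. Nearly all of it was promoter signal, 92.3% to 97.4% of the window counts. The peak over the start, chr5:28069913-28072535, which holds the E-box shown above, had 52.5 and 57.7 CPM in Ctrl and 58.9 and 66.1 in KO, with both KO libraries higher but an unadjusted p of 0.545 by edgeR.

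Among the enzymes, Hmgcs1 encodes HMG-CoA synthase, an early enzyme of the pathway. It lies on chromosome 13, from 119690379 to 119708260 on the plus strand (ENSMUSG00000093930.2). Its window had 94.6 and 80.9 CPM in Ctrl and 102 and 82.9 in KO (0.08, SE 0.25), groups that overlapped. The promoter peaks summed to 77.4 and 62.2 CPM in Ctrl and 94.3 and 69 in KO (0.23, SE 0.27). The main one, chr13:119689869-119691877, covers the SRE shown above (0.18, SE 0.30). The 2 peaks near the 3′ end of the gene went the other way. They summed to 17.2 and 18.7 CPM in Ctrl and 7.82 and 13.9 in KO, with both KO libraries below both Ctrl libraries, as in 24.3% of all sums over other peaks. That difference was −0.71 with an SE of 0.52 (unadjusted p = 0.186, adjusted p = 0.83, edgeR).

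Fdps makes farnesyl diphosphate, where the sterol and isoprenoid branches part. It lies on chromosome 3, from 89093588 to 89101959 on the minus strand (ENSMUSG00000059743.12). Its window had 33 and 46.4 CPM in Ctrl and 49.6 and 53.2 in KO, the only member whose groups did not overlap (0.36, SE 0.29, unadjusted p = 0.235, edgeR). Peaks nearer to the TSS of Rusc1 or Gm43738 held 79.3% to 84.9% of these counts, however. The largest of them, downstream of Fdps at chr3:89088654-89091345, held 24.9 and 31.8 CPM in Ctrl and 38 and 37.1 in KO. The peak over the Fdps start, chr3:89101353-89102191, held 4.98 and 7.14 CPM in Ctrl and 8.94 and 11 in KO. There, too, both KO libraries were higher (0.70, SE 0.57, unadjusted p = 0.215, edgeR), on 11 to 46 counts a library. With each peak given to the nearest TSS the Fdps estimate was 0.71. With no extension of the gene span, 0 of the 8 members had groups that did not overlap.

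Fdft1 encodes squalene synthase, the first enzyme committed to sterols. It lies on chromosome 14, from 63145150 to 63179578 on the minus strand (ENSMUSG00000021273.10). Its window had 94.6 and 132 CPM in Ctrl and 88.3 and 104 in KO (−0.23, SE 0.26), but peaks nearer to the TSS of Ctsb held 35.4% to 52.1% of these counts. Of the 2 listed Fdft1 starts, the one at 63179578 lay in no peak. The peak over the other start, chr14:63177575-63178750, held 29 and 25.6 CPM in Ctrl and 28.3 and 24.2 in KO (−0.06, SE 0.36). An intronic peak 11.6 kb from the covered start, chr14:63164657-63166186, had the lowest p of the gene. It held 9.5 and 16.7 CPM in Ctrl and 7.82 and 6.23 in KO, both KO libraries lower (−0.92, SE 0.52, unadjusted p = 0.0767, adjusted p = 0.998, edgeR).

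Sqle encodes squalene epoxidase, which oxidises squalene, and Lss the lanosterol synthase that closes the sterol rings. Sqle lies on chromosome 15, from 59315077 to 59331192, and Lss on chromosome 10, from 76531588 to 76557138, both on the plus strand (ENSMUSG00000022351.14 and ENSMUSG00000033105.12). Sqle had the fewest counts of the set, from 23 in the first library of each group to 62 and 63 in the second. Its window held 10.4 and 18.5 CPM in Ctrl and 8.57 and 15.1 in KO (−0.28, SE 0.54). The promoter peak, chr15:59314638-59315563, held 9.5 and 9.52 CPM in Ctrl and 8.57 and 12.7 in KO. The other Sqle peaks had counts of 2 and 30 (Ctrl) and 0 and 10 (KO), most of them in the second Ctrl library, and their difference was −1.92 (SE 1.26). The Lss window held 73.7 and 48.5 CPM in Ctrl and 45.5 and 49.4 in KO (−0.36, SE 0.29), with the first Ctrl library above the rest, and peaks nearer to the TSS of Spatc1l held 22.1% to 45.4% of its counts. With each peak given to the nearest TSS the estimate was −0.04. The Lss promoter peak, chr10:76530990-76532176, held 13.6 and 9.52 CPM in Ctrl and 15.6 and 13.4 in KO (0.34, SE 0.47). A peak in the Lss body, chr10:76546588-76547930, nearer to the TSS of Spatc1l, had the lowest p of all member peaks. It held 20.4 and 4.76 CPM in Ctrl and 3.73 and 6.47 in KO, so the first Ctrl library alone stood high (−1.22, SE 0.56, unadjusted p = 0.0293, adjusted p = 0.998, edgeR).

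Promoter and other peaks were then taken apart, since the study asked about them separately. The promoter sums of all 8 genes passed the count minimum and all 8 estimates were above 0, from 0.07 for Lss to 0.52 for Fdps, with a median of 0.15. They stayed above 0 under each other scaling, down to 0.01 for 1 or more genes with total counts and with a loess offset. With promoters limited to 1 kb from a TSS, those of Srebf1 and Fdft1 turned to −0.14 and −0.06, and 5 turned without 1 or another library. Over all 11562 promoter sums the median was 0.07 and 58.8% were above 0, or 51.7% with total counts and 48.9% with a loess offset. None of the 8 had an unadjusted p under 0.05, no member had both KO libraries below both Ctrl (8.93% of all promoter sums), and Srebf2 alone had both above. The sums over other peaks had a median of −0.20, with 2 genes above and 6 below 0, against −0.10 over all 11905 such sums, of which 41.7% were above 0. With a loess offset Insig1 turned to 0.09. None of the 8 reached an unadjusted p under 0.05, which 7.39% of all did, and adjusted p ran from 0.803 to 0.995 by edgeR. Both KO libraries were below at Hmgcs1 and above at Fdps, the latter in 11.3% of all sums over other peaks.

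The share of a window's counts that lay in promoter peaks does not depend on the scaling of libraries. Its KO mean was above its Ctrl mean at all 8 genes, by 0.345 percentage points at Insig1 to 20.6 at Sqle. At Hmgcs1 the share was 81.8% (95% Clopper-Pearson interval 75.9 to 86.8) and 76.8% (71.4 to 81.7) in Ctrl, and 92.3% (88.5 to 95.2) and 83.2% (78.9 to 87) in KO. At Lss it was 26.4% (19.8 to 33.8) and 31.3% (24.3 to 39) in Ctrl, and 45.1% (36.1 to 54.3) and 32% (25.7 to 38.9) in KO. At these 2 members alone the groups did not overlap. Over 10670 genes with both kinds of count, 30.6% had both KO libraries above and 9.2% both below, 67.2% had a higher KO mean, and the median difference was 2.56 points. A higher share in KO was thus common over all genes. With 2 libraries against 2, an exact two-sided permutation test cannot go below p = 0.333, and the intervals cover counting error only.

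**Figure D4:**
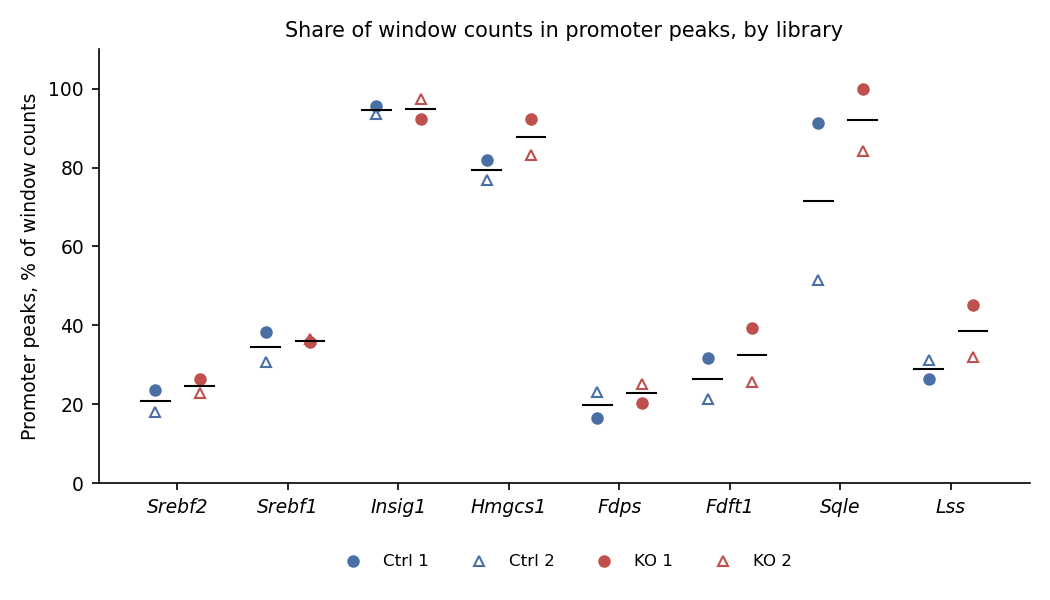
Share of each window's counts that lay in promoter peaks, in percent, for each library (points) with group means (black lines). The KO mean is above the Ctrl mean for all 8 genes, and the groups are separate for Hmgcs1 and Lss only.

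Single peaks added no call. Of the 77 peaks in the 8 windows, 18 were promoter peaks and 59 other peaks, and 61 passed the count minimum. Of these 61, 27 were higher and 34 lower in KO with a median of −0.07, and 1 had an unadjusted p under 0.05, against 4.24% of all 74550 peaks tested. Both KO libraries were above both Ctrl libraries at 9 of the 61 and below at 7. The share over all peaks tested was not counted. Among all peaks tested, 1 (0.00134%) was called as higher in KO, and it lay outside the member windows. The 16 tested promoter peaks had 11 higher and 5 lower with a median of 0.18, and the 45 tested other peaks 16 higher and 29 lower with a median of −0.21.

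Other genes of the pathway were taken from lists fixed by function, and none was called. Of 20 cholesterol synthesis enzymes, all tested and the 5 above included, 8 were higher and 12 lower in KO with a median of −0.10 and 0 with an unadjusted p under 0.05. Over promoters 15 were higher and 5 lower with a median of 0.13, while 58.8% of all promoter sums were above 0. Over other peaks 4 of 17 tested were higher and 13 lower with a median of −0.51, while 41.7% of all such sums were above 0. Over other peaks 2 had an unadjusted p under 0.05 by edgeR, Hsd17b7 (−1.99) and Cyp51 (−1.53), named after their values were seen. Of all such sums 7.39% reached that level. In the lists below it was reached over other peaks by 3 of 9 genes of SREBP control and 2 of 7 of uptake. The counts were 1 of 12 for fatty acid genes, 0 of 5 for LXR and 2 of 7 for isoprenoid genes. Over whole windows, Mvd, which makes the isoprene unit, had the lowest p of the synthesis enzymes above 0 (0.37, SE 0.25). Msmo1, a sterol demethylating oxidase, had the lowest of those below (−0.42, SE 0.30).

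The 9 genes of SREBP control had 5 higher and 4 lower with a median of 0.03. Scap, the escort of the SREBP precursors, was the one with an unadjusted p under 0.05, a level that 2.73% of all windows reached, 312 of those 389 being lower in KO. It had 105 and 153 CPM in Ctrl and 63.3 and 79.5 in KO, both KO libraries lower (−0.86, SE 0.27, unadjusted p = 0.0121, adjusted p = 0.999, edgeR). Its promoter sum differed by −0.45 and its other peaks by −0.87. Insig2, the second retention factor, was also lower in both KO libraries, at 72.7 and 75.2 CPM against 98.2 and 78 (−0.25, SE 0.25). Both KO libraries were below both Ctrl libraries at 16.5% of all windows. Mbtps2, a protease that releases SREBP, had 27.6 and 12.8 CPM in Ctrl and 32 and 17.3 in KO (0.29, SE 0.48).

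For uptake and transport, 6 of the 8 genes tested were higher in KO and 2 lower, with a median of 0.20 and 0 with an unadjusted p under 0.05. Npc2, a lysosomal sterol carrier, had 88.2 and 94.6 CPM in Ctrl and 119 and 134 in KO (0.47, SE 0.23, unadjusted p = 0.0752, edgeR). The lipoprotein receptor genes Lrp8 (−0.46, SE 0.22) and Scarb1 (−0.61, SE 0.30) were lower in both KO libraries. These groups did not overlap, but 12.9% of all windows had both KO libraries above both Ctrl libraries and 16.5% had both below. No adjusted p was under 0.05.

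Of 12 tested SREBP1 fatty acid genes, 4 were higher and 8 lower with a median of −0.15. Fads1, a fatty acid desaturase, had 28 and 31.8 CPM in Ctrl and 11.6 and 17 in KO (−1.06, SE 0.38, unadjusted p = 0.021, adjusted p = 0.999, edgeR). Pnpla3 (0.50, SE 0.30) and Me1 (0.48, SE 0.44) stood on the higher side, and Gpam (−0.48, SE 0.40) on the lower. Scd1 and Fads2 had no counts in any library and were not tested. Of 6 tested genes of LXR and cholesterol efflux or storage, 5 were higher and 1 lower with a median of 0.13. Abca1, the exporter of cellular cholesterol, had 6.79 and 10.7 CPM in Ctrl and 19.4 and 16.1 in KO (1.0, SE 0.51, unadjusted p = 0.0804, edgeR). Abcg1 (0.17, SE 0.26) and Nr1h2 (−0.23, SE 0.25) overlapped between groups, and Cyp27a1 was too low to test.

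Of 7 isoprenoid genes, 2 were higher and 5 lower with a median of −0.09. Pggt1b, a subunit of the geranylgeranyl transferase, had 61.5 and 58.9 CPM in Ctrl and 29.1 and 34.7 in KO (−0.91, SE 0.27, unadjusted p = 0.00822, adjusted p = 0.999, edgeR). Its promoter sum differed by 0.37 and its other peaks by −1.11. Fnta, which encodes the subunit shared by both prenyl transferases, had 13.1 and 15.5 CPM in Ctrl and 5.59 and 7.67 in KO (−1.10, SE 0.57, unadjusted p = 0.088, edgeR). Fntb (0.10, SE 0.21) and Pdss1 (0.20, SE 0.33) stood on the other side of 0.

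**Figure D5:**
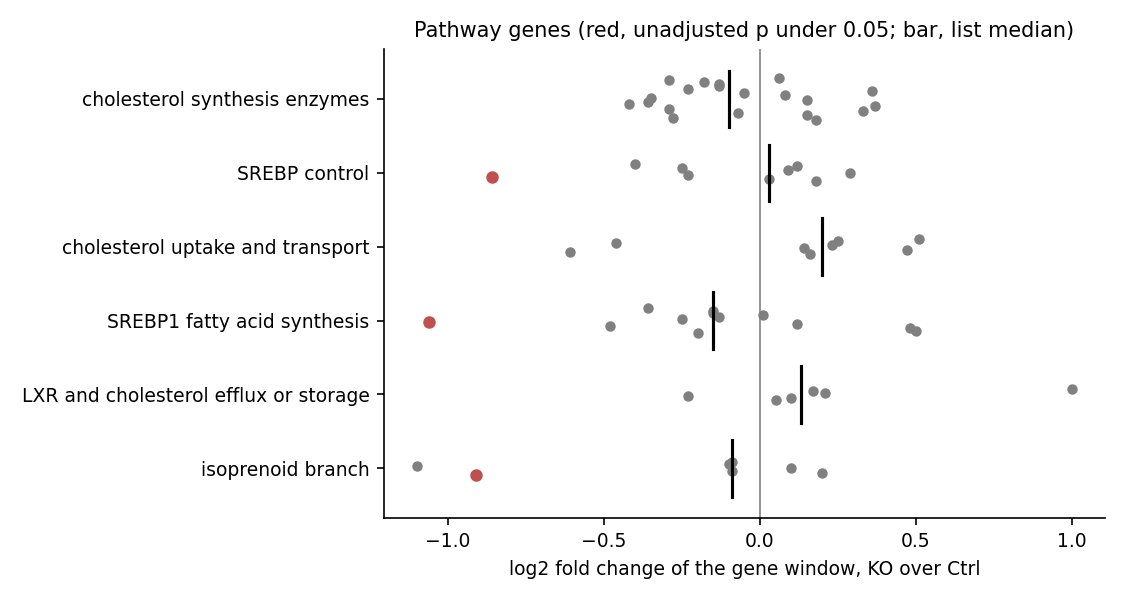
log2 fold change of KO over Ctrl for each tested gene window of the 6 pathway lists (points), with genes at an unadjusted p under 0.05 in red and the list median as a black bar. The red points are Scap (−0.86), Fads1 (−1.06) and Pggt1b (−0.91), and no gene has an adjusted p under 0.05.

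Averaged over the members, which went both ways, the centred log2 CPM was −0.14 and 0.14 in Ctrl and −0.13 and 0.13 in KO. This mean was low in the first and high in the second library of both groups, but Hmgcs1 had the opposite order (0.08 and −0.15 in Ctrl, 0.19 and −0.11 in KO). Lss had the opposite order in Ctrl (0.47 and −0.13), and Insig1 was nearly level in KO (0.06 and 0.07). The 3 genes outside the member windows whose pattern was most like this mean were Ccnk, Taok2 and Appbp2, with Pearson r of at least 0.9999 over 4 libraries. With so few points such values are common, as 11.4% of 14242 genes had r above 0.9.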

How the data were processed

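H3K27ac CUT&Tag was measured in 2 Ctrl and 2 KO libraries of large intestinal Treg cells. The authors aligned 150 bp paired-end reads to mm10 with Bowtie2, kept unique reads, removed duplicates, called peaks with MACS2 against IgG, merged them with bedtools and deposited raw counts of reads per merged peak; tool versions are not given in the sources used here. Since peaks were called on the libraries compared, the peak set depends on their signal. Library totals ran from 2395002 to 4712473 counts, and few counts at a peak widen its error.

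Groups and replicate numbers came from the sample labels. Gene spans and starts of protein-coding genes were those of GENCODE M21 (basic set, GRCm38.p6). Coordinates are 1-based. Counts were summed per gene over the span extended 5 kb each side, over promoter peaks (within 3 kb of a TSS of the gene) and over the remaining peaks. A peak in overlapping windows counted for each gene. Each table was fitted over all features that had 10 or more counts in 2 or more libraries, using edgeR 4.0.16 and its quasi-likelihood test (R 4.3.3), with TMM factors of the tested peaks, no covariate, and Benjamini-Hochberg adjustment over the whole table (called at adjusted p under 0.05). This leaves 2 residual degrees of freedom. In this main fit each peak was tested with the spread of the trend for its abundance alone, while gene sums also used their own spread. SE is the log2 fold change divided by the root of F. The code was tested on simulated counts. The 2 libraries of a group are separate pools of mice.

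The members and lists were chosen with earlier results of these data known. Named were the 8 members, a few fixed pathway genes (Scap and Insig2 among them), and in each pathway list the 2 higher and 2 lower genes with the smallest p. Some genes that this rule names are not reported here. For each member, the promoter and the other peak with the most counts and the tested peak with the smallest p were named, as were the 3 genes most like the members' mean profile. The Srebf1 start peaks, the Hmgcs1 peaks near the 3′ end and genes without counts were named after their values were seen. The alternatives were DESeq2 1.42.0, its size factors in edgeR, unscaled total counts, a loess offset, other minimums of counts, windows and promoter limits, assignment to the nearest TSS, the replicate number as a block, and leaving out each library.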

Additional observations from a re-analysis of the deposited data

How the results depend on the processing

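No member gene window, promoter sum or sum over other peaks was called under any alternative. Estimates that changed sign were those of the Srebf1 window (−0.03 with total counts as library size, −0.01 with a loess offset), the Hmgcs1 window (−0.02, loess), the Insig1 other peaks (0.09, loess) and, with promoters limited to 1 kb, the Srebf1 promoter (−0.14), the Fdft1 promoter (−0.06) and the Srebf1 other peaks (0.06). The number of members whose groups did not overlap, 1, became 2 with DESeq2 size factors (Insig1 and Fdps), 2 with total counts (Lss and Fdps) and 0 with no extension of the span. List medians moved to −0.21 (fatty acid genes) and 0.07 (LXR) with total counts, to 0.20 (LXR) with each peak given to the nearest TSS, and to −0.01 (isoprenoid) with windows extended 10 kb. The SREBP control median, 0.03 in the main fit, changed sign to −0.03 with total counts and −0.01 with a loess offset. Peaks called lower became 2 with a loess offset, and peaks called higher 0 with DESeq2, with any count and with at least 50 counts.

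The replicate numbers are shared by Ctrl and KO but the labels do not say that they pair the pools. Deviations of same-numbered libraries correlated at 0.24 over peaks and 0.468 over gene windows, with 2 pairs only. With the replicate number as a block, edgeR called 589 gene windows higher and 592 lower, and 194 and 471 sums over other peaks. It called 0 promoter sums, and 152 and 59 peaks. No member was among them, and the smallest adjusted p of a member window was 0.272. The block leaves fewer residual degrees of freedom than the main fit. With it, gene windows as well as peaks were tested with the spread of the trend alone.

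Without each library in turn, window estimates ran from −0.10 to 0.19 (Hmgcs1), −0.80 to 0.21 (Sqle), −0.01 to 0.27 (Insig1), −0.24 to 0.21 (Srebf1), −0.25 to 0.58 (Srebf2), −0.63 to −0.04 (Lss), 0.14 to 0.64 (Fdps) and −0.46 to 0.04 (Fdft1). Window estimates changed sign without Ctrl replicate 1 for Insig1, Srebf1 and Srebf2, without Ctrl replicate 2 for Hmgcs1, Sqle and Fdft1, without KO replicate 1 for Hmgcs1 and Sqle, and without KO replicate 2 for Srebf1 and Srebf2. Promoter estimates ran from −0.03 to 0.41 (Hmgcs1), −0.18 to 0.40 (Sqle), 0.02 to 0.26 (Insig1), −0.17 to 0.31 (Srebf1), 0.15 to 0.66 (Srebf2), −0.14 to 0.24 (Lss), 0.13 to 1.12 (Fdps) and −0.13 to 0.22 (Fdft1). Other peaks ran from −1.23 to −0.39 (Hmgcs1), −2.74 to −1.09 (Sqle), −0.38 to 0.51 (Insig1), −0.28 to 0.26 (Srebf1), −0.37 to 0.57 (Srebf2), −0.88 to −0.19 (Lss), 0.14 to 0.53 (Fdps) and −0.69 to 0.03 (Fdft1), where Sqle and Insig1 could be fitted without 2 of the 4 libraries only (Ctrl replicate 1 and KO replicate 1 for Sqle, Ctrl replicate 1 and KO replicate 2 for Insig1). List medians ran from −0.15 to 0.15 (synthesis enzymes), −0.25 to −0.12 (SREBP control, against 0.03 with all libraries), 0.11 to 0.26 (uptake), −0.20 to −0.08 (fatty acid genes), 0.03 to 0.16 (LXR) and −0.17 to 0.00 (isoprenoid). Peaks called higher ran from 0 to 1, being 0 without Ctrl replicate 1, Ctrl replicate 2 or KO replicate 2. The lone library of a group was assumed to vary like the others. The cause of these changes was not tested. Differences of the size seen at single member peaks could not be told from the spread.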
